A study of Homo sapiens with 3 samples.

Results

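The stretch of chromosome 6 that holds HBS1L and MYB was examined for HMGA1 binding in DAMI cells. Members were all called HMGA1 peaks whose summit, the base of highest signal, lay between 134800000 and 136200000 on chromosome 6 (hg19 build). In the list called against input DNA 288 of 385953 peaks met this rule, and in the list called against histone H3 213 of 263033 did. The rule used position alone, not peak height. DAMI is an established human leukaemic cell line, labelled MPN/AML (myeloproliferative neoplasm, acute myeloid leukaemia). From its sonicated nuclei came 3 libraries with 1 sample each, namely chromatin immunoprecipitation (ChIP) with an HMGA1 antibody, ChIP with a histone H3 antibody, and input DNA without antibody. All 3 came from the same line, and the labels name no difference in genotype, treatment or time between them. Both lists rest on the same HMGA1 reads, so agreement between them is not replication.

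MYB encodes a DNA-binding transcription factor that keeps blood progenitors dividing and immature, and its level falls as red cells and megakaryocytes mature. HBS1L, transcribed away from MYB on the other strand, encodes a translational GTPase that rescues stalled ribosomes. The stretch between the genes is known for distal enhancers that loop to the MYB promoter in erythroid cells. HMGA1 is an architectural chromatin protein whose AT hooks bind the minor groove of AT-rich DNA, and histone H3 ChIP follows nucleosomes. Among protein-coding genes in RefSeq order, ALDH8A1 precedes HBS1L, and AHI1 and PDE7B follow MYB.

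Peaks were sorted by summit into 5 zones. HBS1L spanned 135281516 to 135424194 and MYB 135502453 to 135540311, and the intergenic stretch between them was 78.3 kb long. The left flank lay below HBS1L (482 kb) and the right flank above MYB (660 kb). Distances are from the lower end of MYB, where its transcription starts, and "upstream" means towards HBS1L. RefSeq on a later build lists a shorter HBS1L than this interval, so the upper end used here as the HBS1L start is not the start of every HBS1L transcript. Exons, introns and UTRs under single peaks were not analysed here.

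No HMGA1 peak was called at the MYB start. In both lists 0 summits lay within 2 kb of it. An empty window of this size was common: of 350 successive 4 kb windows over the locus 43.1% held no summit over input and 54.6% none over H3, and on all of chromosome 6 53.3% and 63.1% held none. The nearest summit downstream was 3.17 kb inside the gene in either list. Upstream the nearest was 9.55 kb away over input and 12.3 kb away over H3. The promoter sequence is given as description only. The A or T content of peaks was not analysed here, and nothing is read from the absence of a peak at the start. These are the 250 bases before the RefSeq start of MYB (GRCh38.p14, plus strand, 5′ to 3′), with runs of at least 4 bases that are all A or T in capitals, a pattern that reads the same on both strands:
MYB: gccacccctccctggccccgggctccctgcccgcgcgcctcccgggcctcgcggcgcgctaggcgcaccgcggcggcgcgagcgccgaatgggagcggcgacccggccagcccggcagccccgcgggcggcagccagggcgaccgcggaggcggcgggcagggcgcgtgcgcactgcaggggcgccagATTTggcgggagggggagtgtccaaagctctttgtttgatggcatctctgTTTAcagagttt

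Of these bases 61 are A or T (24.4%), against a median of 42% over the same window in 35116 RefSeq promoters, and 8.69% of promoters have a lower share. The window holds 2 such runs against a median of 4, and 88.6% of all promoters hold at least 1. The RefSeq promoter of HBS1L, which belongs to the shorter gene, is 36% A or T with 3 runs. These are descriptions of the windows. Whether the GRCh38 start of MYB is the very base used as its hg19 start was not checked.

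Within MYB 9 peaks were called in each list, and the gene body held the highest HMGA1 pileup of the locus. That peak, chr6:135520157-135520792, had its summit 18.2 kb downstream of the start. HMGA1 covered the summit with 67 reads (95% Poisson interval 51.9 to 85.1), against an input level of 4.49 and an H3 level of 2.43 reads. Reads at summits and control levels were worked back from each peak's deposited fold and p-value, and their intervals cover counting error only. In the H3 list HMGA1 reads were multiplied by 0.787, so input and H3 levels are on different scales. The peak was 12.4-fold over input and 15.7-fold over H3, the authors' own values. Over H3 it was the highest fold of the locus, the 8th of 22031 peaks on chromosome 6 and the 98th of the whole list. Over input it ranked 148th of 29977 on the chromosome and 1354th in the list. The H3-list call was wider, 934 bp against 636 bp.

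The other MYB peaks were lower. At 6.75 kb the summit had 39 HMGA1 reads and was 7.34-fold over input and 7.92-fold over H3. At 12.2 kb there were 32 reads, 6.06-fold over input and 7.12-fold over H3. At 25.8 kb there were again 32 reads, with 6.06-fold and 7.84-fold. These 3 stood higher over H3 than over input, as did the highest peak. One peak went the other way: at 19.4 kb, with 29 reads, the fold was 6.37 over input and 3.97 over H3, where H3 covered the summit with 5 reads, 2.29 times its genome-wide floor.

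The last MYB peak lay at 37.2 kb, near the far end of the gene. Its 27 HMGA1 reads stood over an input level of 8.01 reads, 2.88 times the input floor, and over an H3 level of 2.62 reads. The fold was 3.11 over input and 6.15 over H3. The floor is the lowest control level the caller appears to use, 2.78 reads for input and 2.19 for H3, so a lower level is never seen. The peak closest to the start, at 3.17 kb, was a low one of 18 reads, 3.09-fold over input and 4.62-fold over H3. Of the 9 peaks, 7 had a counterpart in the other list, in each direction. The input-only peaks, at 6.002 and 24.9 kb, had 15 and 16 reads. The H3-only peaks, at 16.7 and 17.2 kb, had 18 reads each and lay just before the highest peak.

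**Figure D1:**
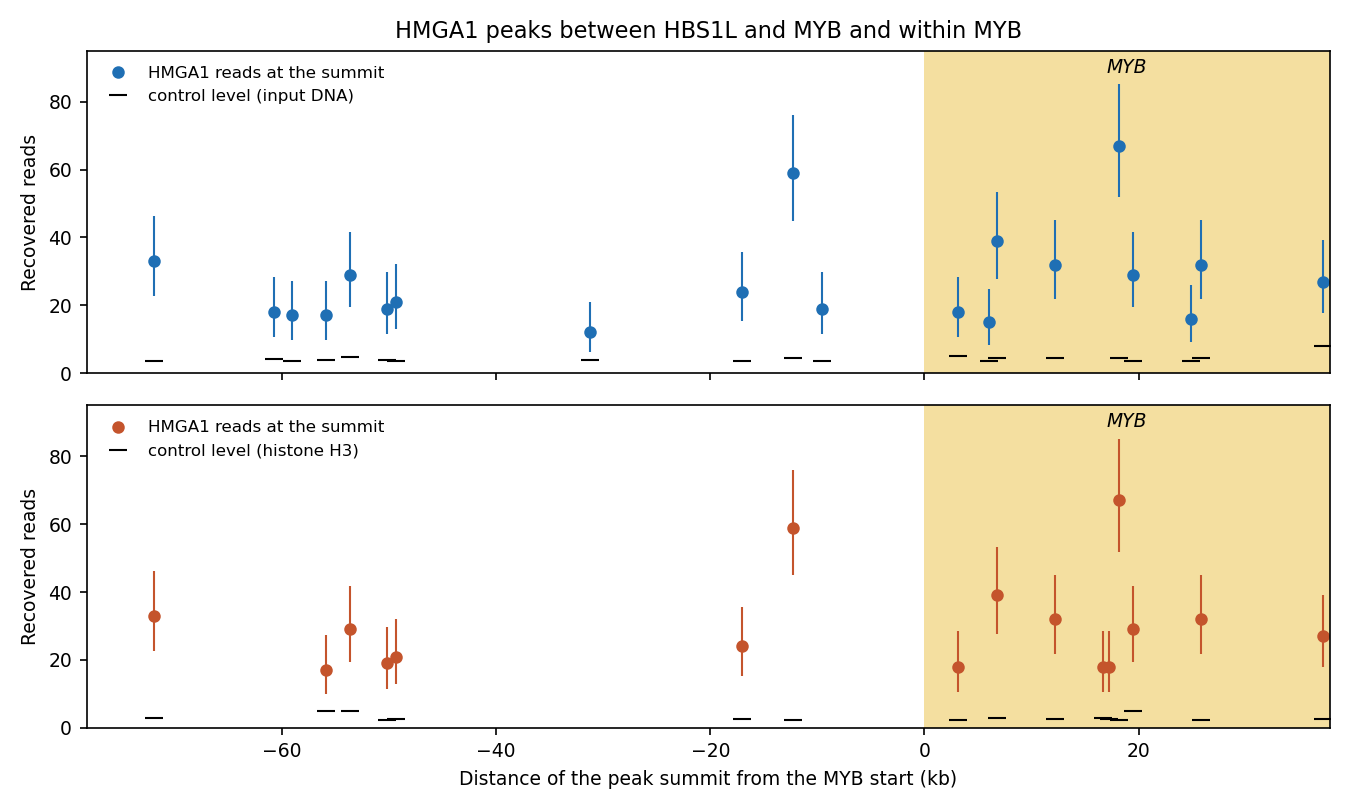
Recovered HMGA1 reads at each summit (points, with 95% Poisson intervals as bars) and the control level (dashes) against distance from the MYB start in kb, over input DNA (top) and histone H3 (bottom), with MYB shaded. The highest points are the 67-read peak inside MYB and the 59-read peak 12.3 kb upstream, and no point lies at the start.

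In the intergenic stretch 11 peaks were called over input and 7 over H3, and 1 of them stood far above the rest. It was chr6:135489832-135490380, with its summit 12.3 kb upstream of the MYB start and 59 HMGA1 reads (44.9 to 76.1). The fold was 11.01 over input and 14.9 over H3, the second highest H3 fold of the locus. It ranked 18th on chromosome 6 and 181st in the list over H3, and 402nd and 3793rd over input. H3 was at its floor there, whereas input was at 4.45 reads. Its reads did not differ from those of the highest MYB peak beyond the counting intervals, and the summits were 30.5 kb apart.

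The next peak of the stretch by height lay at its HBS1L end, 72.01 kb upstream of MYB. It had 33 reads, 7.296-fold over input and 6.75-fold over H3. A group of 6 input-list peaks followed over 11.5 kb, with summits from 60.8 to 49.3 kb upstream of MYB, singled out after its values were seen. These had 17 to 29 reads and folds over input of 3.68 to 5.30. Of the group 4 were also called over H3, with folds of 2.396 to 4.84, and 2 of these had H3 at 5 reads. Between this group and the 59-read peak the H3 list had a summit at 17.01 kb only, with 24 reads and 5.67-fold, and the input list added one of 12 reads at 31.2 kb. All 7 H3-list peaks of the stretch had an input-list counterpart. The 4 input-only peaks had 12 to 19 reads.

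The HBS1L interval carried more called peaks per length than the stretch beside it, without any as high as the highest there. Over input this difference in density was not detectable under stricter thresholds, and over H3 that depended on the threshold. The interval is that of the longer HBS1L, and where the shorter gene starts on hg19 was not determined. An unknown upper part of the interval, with its peaks, may therefore lie outside the shorter gene. All densities and ratios given here use the longer limit, and none was worked out with the shorter one. Over input 42 peaks were called in the HBS1L interval (29.4 per 100 kb, 95% Poisson interval 21.2 to 39.8) against 14.1 per 100 kb (7.02 to 25.2) in the intergenic stretch. The ratio of densities was 2.09 (1.06 to 4.51). Over H3 there were 33 peaks (23.1 per 100 kb, 15.9 to 32.5) against 8.94 (3.596 to 18.4), a ratio of 2.59 (1.12 to 6.93). With a −log10 q of at least 5 the ratio was 1.65 (0.783 to 3.77) over input and 2.47 (0.998 to 7.31) over H3. With a fold of at least 4 it was 1.72 (0.711 to 4.78) over input, and these intervals all include 1. Over H3 the ratio at that fold threshold was 2.85 (1.08 to 9.51), an interval that excludes 1. The intervals treat peaks as independent and cover counting error only. MYB had 23.8 peaks per 100 kb in both lists (10.9 to 45.1), and its ratio to the stretch was 1.69 (0.619 to 4.49) over input and 2.66 (0.881 to 8.397) over H3, so a difference was not detectable with 9 peaks.

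Peaks were spread along the HBS1L interval, with 22 over input below its midpoint and 20 above it. The highest fold over input was at chr6:135400780-135401127, with 40 reads (28.6 to 54.5), 8.70-fold over input and 7.77-fold over H3. Over H3 the highest was chr6:135347112-135347641, with 39 reads, 9.39-fold over H3 and 7.51-fold over input. A peak at chr6:135362315-135362803 had 37 reads and was 8.34-fold over input and 9.34-fold over H3. Their reads overlapped within counting error, so the order among them is not settled. The widest peak of the locus also lay in HBS1L, at chr6:135307495-135308728, 1234 bp wide over input and 992 bp over H3, with 32 reads and folds of 6.74 and 6.54.

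At the upper end of the HBS1L interval 0 summits lay within 2 kb. The nearest were 4.90 kb inside the interval, with 29 reads and 6.11-fold over input, and 6.25 kb outside it, which is the 33-read intergenic peak. One peak of the HBS1L interval was called over H3 alone. It was chr6:135417224-135417420, with 17 reads and 3.97-fold, and it and the pair in MYB were the 3 H3-only peaks of the locus. No input-list peak in HBS1L, MYB or the intergenic stretch lay at the input floor, against 20.3% in the left flank and 4.79% in the right flank. On chromosome 6 the share was 19.0%, and in the whole input list 36.4%. Input levels at peaks varied along the chromosome. The median was 1.196 times the floor between 130000001 and 135000000 and 1.28 times between 135000001 and 140000000. Up to base 20000000 it lay at the floor. Whether the floor shares of the zones differ from those of their surroundings was not tested. Over H3 the floor shares were 12.1% in HBS1L, 14.3% in the intergenic stretch and 0% in MYB. They were 18.2% in the left flank, 11.5% in the right flank and 36.6% on chromosome 6.

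**Figure D2:**
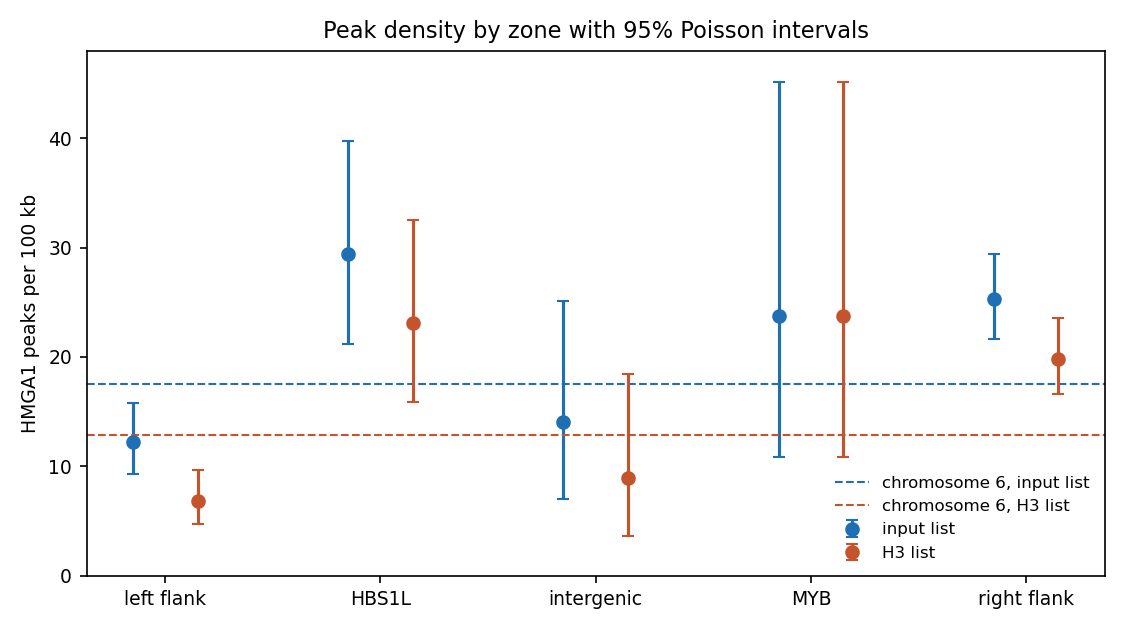
HMGA1 peaks per 100 kb in the 5 zones for the input and H3 lists, with 95% Poisson intervals as bars and dashed lines for the density of chromosome 6 in each list. The left flank lies below both lines (12.3 and 6.85) and HBS1L and the right flank above them.

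The flanks differed from each other. The left flank had 59 peaks over input and 33 over H3, or 12.3 (9.33 to 15.8) and 6.85 (4.72 to 9.62) per 100 kb. The right flank had 167 and 131, or 25.3 (21.6 to 29.5) and 19.9 (16.6 to 23.6) per 100 kb. The ratio of right to left was 2.07 (1.53 to 2.83) over input and 2.90 (1.97 to 4.38) over H3. In the left flank 54.2% of input-list peaks (Wilson 95% interval 41.7 to 66.3) had an H3-list counterpart, and in the right flank 78.4% (71.6 to 84.003). The median summit had 18 HMGA1 reads (95% interval of the median 15 to 20) on the left and 21 (19 to 23) on the right.

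The emptiest part of the locus was in the left flank. Over H3 no summit lay between the peaks chr6:135039158-135039970 (9.07-fold, 37 reads) and chr6:135139713-135139979 (5.52-fold, 22 reads), a distance of 100.5 kb, whereas the median distance between neighbouring summits was 3.99 kb. Within that gap the input list had 6 peaks of 12 to 18 reads and 2.52-fold to 4.62-fold. Over input the longest distance was 38.5 kb, in the same flank, against a median of 3.30 kb. The flank nevertheless held a peak among the 10 highest folds of both lists, chr6:134950537-134951131, with 40 reads, 8.99-fold over input and 10.2-fold over H3.

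**Figure D3:**
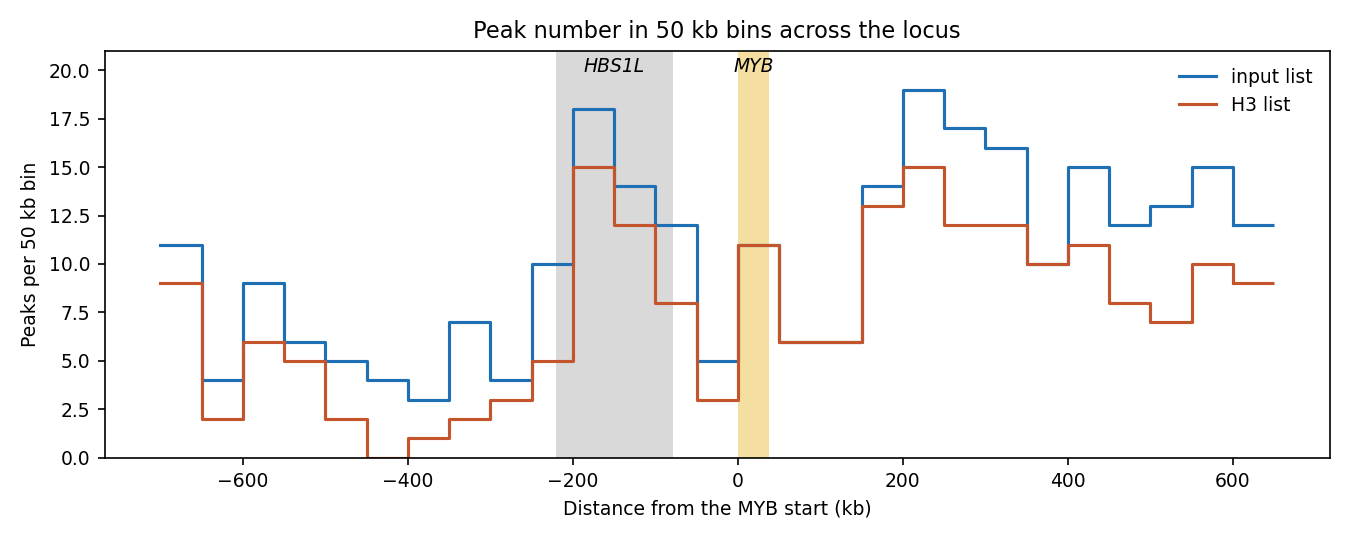
Number of HMGA1 peaks in 50 kb bins against distance from the MYB start in kb, for the input and H3 lists, with HBS1L and MYB shaded; incomplete bins at the ends are left out. Counts reach 18 and 15 in a bin over HBS1L, drop to 5 and 3 in the bin before the MYB start, and reach 19 and 15 in the bin 200 to 250 kb beyond it.

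The right flank, which follows MYB, held the highest fold over input. It was chr6:135901522-135901868, with its summit 399 kb beyond the MYB start, 59 reads (44.9 to 76.1), 13.2-fold over input and 12.5-fold over H3. Nearer to MYB, chr6:135594277-135594684 had its summit 92.1 kb beyond the start, with 46 reads, 10.696-fold over input and 10.7-fold over H3. A further peak, chr6:135605457-135605971 at 103.3 kb, had 50 reads, 9.36-fold over input and 12.2-fold over H3. In both lists the bins from 50 to 100 and from 100 to 150 kb beyond the MYB start held 6 peaks each. The complete bins farther out held 10 to 19 over input and 7 to 15 over H3.

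The remaining peaks among the 10 highest folds over input also lay in this flank. They were chr6:136001756-136002197 (38 reads, 10.3-fold), chr6:136039422-136039806 (38 reads, 10.1-fold), chr6:135893839-135894453 (39 reads, 9.61-fold) and chr6:135990527-135990988 (35 reads, 9.28-fold). Over H3 these were 9.58-fold, 7.74-fold, 9.94-fold and 7.13-fold. The H3 top 10 also held chr6:136017311-136017608, with 37 reads, 9.44-fold over H3 and 7.98-fold over input. Of the 10 highest folds over input, 8 had their counterpart among the 10 highest over H3, and 10 of 10 in each list had some counterpart. Only 3 summits of the locus had 59 reads or more, namely those inside MYB, 12.3 kb upstream of it and 399 kb beyond it.

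**Figure D4:**
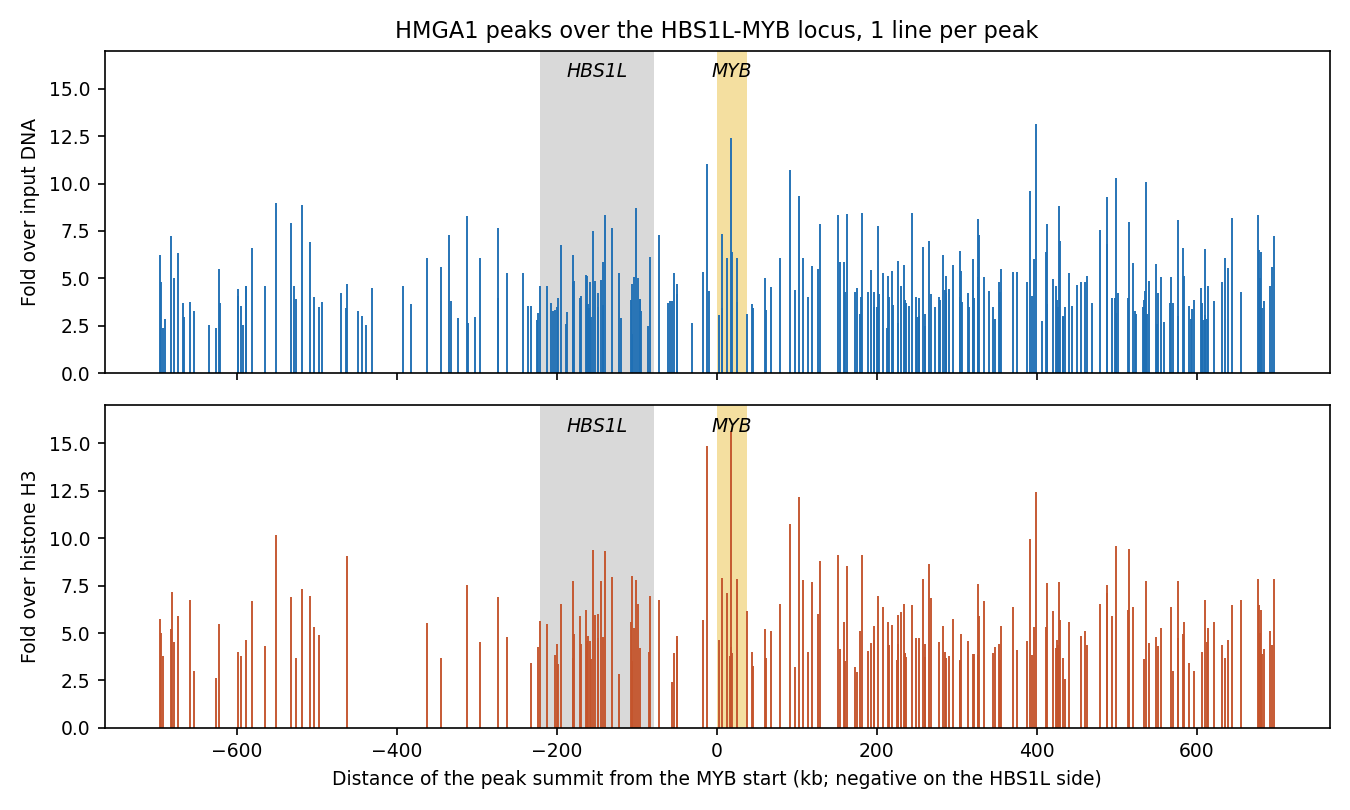
Fold of each HMGA1 peak (1 line per peak) over input DNA (top) and histone H3 (bottom) against distance from the MYB start in kb, with HBS1L and MYB shaded. The tallest line over H3 is the MYB peak (15.7-fold), followed by the peak 12.3 kb upstream (14.9-fold), and the tallest over input lies 399 kb beyond the MYB start (13.2-fold).

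Median folds of called peaks did not separate the zones. Over input the medians were 4.07 in the left flank, 4.15 in HBS1L, 4.34 in the intergenic stretch, 6.06 in MYB and 4.44 in the right flank. The interval for MYB (3.11 to 7.34, 9 peaks) covered the other medians, but it is too wide to show that the zones are alike. That of the right flank (4.23 to 4.83) lay above the medians of the left flank and HBS1L. Their own intervals (3.70 to 4.62 and 3.68 to 4.84) covered the right-flank median. Over H3 they were 5.23, 5.25, 4.84, 6.15 and 5.09 in the same order, and the MYB interval (3.97 to 7.92) again covered the rest. Over input, peaks covered 3.79% of the left flank, 11.02% of HBS1L, 4.37% of the intergenic stretch, 8.63% of MYB and 9.296% of the right flank. Over H3 they covered 2.22%, 8.70%, 2.76%, 9.30% and 6.70% in the same order.

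Summits coincided to the base at 93 places in the locus, with the same number of HMGA1 reads in both lists at all 93. Equal reads are not a separate result, because both lists share the HMGA1 library and the 0.787 factor was fitted at such summits. The fold over H3 was higher than over input at 52 of them (55.9%, 45.8 to 65.6), against 42.2% of the 114050 such summits in the whole lists. By zone this held at 5 of 11 in the left flank, 9 of 14 in HBS1L, 2 of 3 in the intergenic stretch, 5 of 6 in MYB and 31 of 59 in the right flank. These folds do not differ by control alone, because HMGA1 reads were multiplied by 0.787 for the H3 list. Where both controls lie at their floors, that factor makes the fold over input the higher at every called peak. This was so at 0 of the 93 summits. In the whole lists 36.4% of input-list and 42.9% of H3-list peaks lay at the floor. The 42.2% is therefore not a like background, and summits with both controls at the floor were not set apart in it. Relative to its floor, input exceeded H3 by more than 1.5 times at 15 of the 93 summits, and H3 exceeded input by as much at 5.

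**Figure D5:**
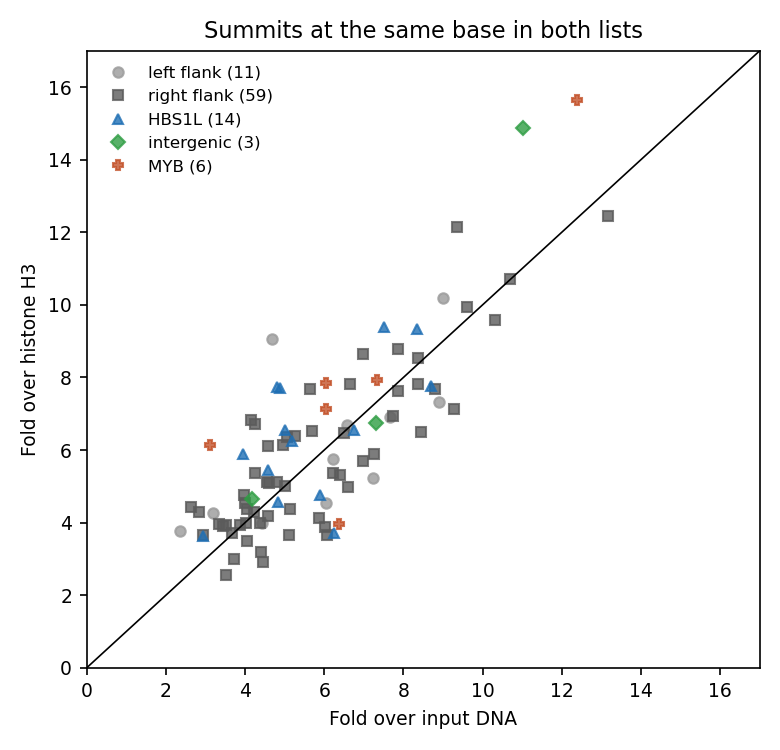
Fold over histone H3 against fold over input DNA at the 93 summits found at the same base in both lists, marked by zone, with the line of equal folds. The highest MYB and intergenic peaks lie above the line (15.7 against 12.4, and 14.9 against 11.01).

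Set against the rest of the genome, the locus held slightly more called peaks per length than the rest of chromosome 6 with all peaks counted, but not detectably more under stricter thresholds. It had 20.6 peaks per 100 kb over input (18.3 to 23.1), which was 1.18 times (1.04 to 1.32) the rest of chromosome 6 and 1.55 times (1.38 to 1.74) the rest of the autosomes. Over H3 it had 15.2 (13.2 to 17.4), or 1.18 (1.03 to 1.35) and 1.67 (1.46 to 1.91) times. With a −log10 q of at least 5 the ratio to chromosome 6 was 1.13 (0.98 to 1.30) over input and 1.13 (0.965 to 1.33) over H3, and with a fold of at least 4 it was 1.05 (0.902 to 1.23) and 1.07 (0.907 to 1.24). Peaks were unevenly spread over chromosome 6. Up to base 20000000, windows of 5000000 bases held 335 to 463 input-list peaks and 158 to 260 H3-list peaks. Median control levels there lay at the floor. The window from 135000001 to 140000000 held 801 and 602, with median levels above the floor. Chromosome lengths ran to the last peak, and unassembled bases were not taken out. How far these points account for the ratios was not tested. Of 2046 autosomal windows of 1.4 Mb, 388 held more input-list peaks and 346 more H3-list peaks. The median fold was 4.39 (4.17 to 4.62) over input and 5.10 (4.75 to 5.46) over H3, and both intervals covered the chromosome 6 medians of 4.61 and 5.28. Control levels at peaks were 1.31 (input) and 1.197 (H3) times the floor at the median, against 1.196 and 1.08 on chromosome 6.

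In the locus 72.6% of input-list peaks (67.1 to 77.4) had an H3-list counterpart, against 65.8% in the whole list. On chromosome 6 the share was 70.8%, within the interval of the locus. Of H3-list peaks 98.6% (95.9 to 99.5) had an input-list counterpart, against 98.3% in the whole list and 98.1% on chromosome 6. The counterparts followed height. With 25 reads or more 92 of 93 input-list peaks had one (98.9%, 94.2 to 99.8), with 18 to 24 reads 84 of 99, with 14 to 17 reads 31 of 72 and with 10 to 13 reads 2 of 24. In the whole list the shares in the same classes were 98.5%, 86.4%, 37.9% and, up to 13 reads, 6.23%. A fold of at least 8 was reached by 23 input-list peaks (7.99%, 5.38 to 11.7), near the 7.23% of the whole list, and by 17 H3-list peaks (7.98%, 5.04 to 12.4), against 10.1%.

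Peaks continued beyond both limits of the locus. The last peak outside on the left, chr6:134794409-134795031, had 42 reads and 9.43-fold over input, and the first inside, chr6:134806371-134806656, had 28 reads and 6.22-fold. On the right the last inside, chr6:136199230-136199637, had 32 reads and 7.24-fold, and the first outside, chr6:136200029-136200316, had 13 reads and 3.36-fold.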

How the data were processed

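The authors deposited 2 MACS2 peak lists on hg19, per the submitters' processing notes and the peak names. The version of MACS2, the aligner and any filters on reads are not given in the labels or headers. Peak names carry a prefix other than HMGA1, and the labels and list names were used to identify the ChIP as HMGA1. Each deposited row gives a fold ratio at the summit, p-value and q-value as −log10, a whole-number score and the summit position, all the authors' own per-peak values.

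Total read numbers are unknown. HMGA1 reads and control levels at summits were recovered as the whole pileup that, with 1 added to both terms of the fold, gave back the printed Poisson p-value within 0.001. All 385953 input-list peaks fitted. All 263033 H3-list peaks fitted after the HMGA1 reads were multiplied by 0.787, and 1.57% fitted without it. This factor was fitted at a sample of summits at the same base in both lists, with the input-list reads taken as known. The recovery was tested on simulated data. Counterparts overlapped by at least 1 bp. With 1 library per antibody no test between groups was possible and no p-value is given. Intervals are 95%. Those of reads, counts, densities, ratios and shares cover counting error only. Those of medians come from the ranked values of the peaks, taken as independent. None covers variation between libraries.

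Gene limits came with the definition of the locus, and an hg19 genome was not used here, so peak sequences are not shown. Promoters are from RefSeq (GRCh38.p14), matched by symbol for both genes. Named were the 10 highest folds per list, the highest peaks per zone, those nearest each gene start, the widest peak, the longest gap, the H3-only peaks and the peaks at the limits; all peaks of MYB and several others were added after their values were seen. The locus and these choices were made with earlier results of these data known. Alternatives were stricter q-values and folds, the 20000 highest-q peaks, zones by overlap, and other definitions of a counterpart. The software was Python 3.11.15 with matplotlib 3.10.9, scipy 1.17.1, pandas 2.3.3 and numpy 2.4.6. Coordinates are 1-based.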

Additional observations from a re-analysis of the deposited data

How the results depend on the processing

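There was 1 library per antibody, so no replicate could be left out. No paired analysis was possible because each group has a single sample. With the 20000 highest-q peaks of each list, 13 (input) and 16 (H3) peaks of the locus were left. The density of HBS1L over the intergenic stretch then became 0.548 over input (interval 0.00699 to 43.1), the reverse of 2.09, and 1.10 (0.0571 to 64.7) over H3. These ratios rest on 1 peak in each zone over input, and on 2 in HBS1L and 1 in the stretch over H3. The right flank over the left became 6.57 (0.91 to 288) over input and 3.65 (0.778 to 34.3) over H3, and the locus over the rest of chromosome 6 became 0.978 (0.52 to 1.68). With a fold of at least 4 the locus had 172 input-list peaks, which covered 4.75% of its bases, median reads of 25 (input) and 25.5 (H3), and an H3 control level 1.14 times its floor. At a q-value of 5 or more as −log10 the median folds were 5.05 (input) and 5.72 (H3) and the median reads 24 and 26. The median fold over input was 5.01 for peaks with a counterpart only. Under either threshold the input-list summit nearest the MYB start was 6.75 kb away. The share of H3-list peaks with a counterpart was 92.0% where 50% of each peak had to be shared, 95.6% under the q-value threshold and 82.7% under the fold threshold. These settings keep fewer peaks, select on fold or q-value, or ask for more overlap, and the cause of each change was not tested. The other 53 alternatives run for results on the whole locus, the density ratios and the nearest summits gave values within the main interval or within 1.5 times. Several of them nevertheless had intervals that include 1 where the main one did not, namely the locus over chromosome 6 in both lists and HBS1L over the intergenic stretch, whose values stand beside those results. The lowest peaks called on chromosome 6 had 8 (input) and 11 (H3) HMGA1 reads, and sites below that were not detectable at this depth.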
